A study of Mus musculus with 6 samples.

Results

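The genes described here encode 10 subunits of chromatin remodelers of the SWI/SNF, ISWI and CHD families: the accessory subunits Smarcd1, Smarcd2 and Smarcd3 and the ATPases Smarca2, Smarca4, Smarca1, Smarca5, Chd3, Chd4 and Chd7. They were taken by symbol from the count table of 57010 genes, and all 10 were among the 18114 genes that passed the filter on low counts. The set was chosen from earlier results of the mandible against femur contrast in these libraries, so the values of that contrast are given as a description. No p-value is given for these genes, and where their calls are counted beside the share of calls over all genes, nothing is supported by them. RNA of bone marrow monocytes from C57BL/6 mice (C57BL/6J in the methods of the study) 1 year old was sequenced in 6 libraries, 3 from the mandible (S16, S19 and S23) and 3 from the femur (S13, S15 and S18). No other treatment or allele was named for either group. Enrichment was by negative selection, where antibody-labelled unwanted marrow cells are held back on a magnetic column, so cells that the antibodies miss remain in the sample. The study used male and female mice, but no source used here names the animal, its sex or the batch behind a library, and p-values of genes outside the set measure the spread between these libraries, which may be technical.

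Chromatin remodelers use the energy of ATP to slide, evict or space nucleosomes, the units in which DNA is wrapped around histones. SWI/SNF (BAF) complexes are built around one of a pair of alternative ATPases, BRM (Smarca2) or BRG1 (Smarca4), and carry BAF60 subunits from the Smarcd family, which link the complex to transcription factors. A change of paralog within a complex is known from differentiation, with BAF60c (Smarcd3) serving in heart and skeletal muscle and BAF60b (Smarcd2) in granulocyte formation. ISWI complexes space nucleosomes with either SNF2L (Smarca1) or SNF2H (Smarca5), Chd3 and Chd4 are alternative ATPases of the NuRD complex, which also removes acetyl groups from histones, and Chd7 is a CHD remodeler needed in neural crest development.

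The libraries held 15718782 to 25371474 counts on genes, and a count of 0 allows up to 3 counts, or 0.118 to 0.191 counts per 1000000 (CPM) before scaling, which covers counting error only. Of the tested genes, 702 were called higher and 236 lower in the mandible by edgeR's quasi-likelihood test, where a call needed an adjusted p (Benjamini-Hochberg) under 0.05 and at least a 2-fold change. Xist, which is transcribed from the inactive X chromosome, reached 1441 CPM in mandible S23 but no more than 0.553 CPM elsewhere, and the Y-linked gene Ddx3y had no count in S23. Lists of marker genes moved with the skeletal site. All 10 mesenchymal and osteoblast markers were called higher in the mandible, and their summed level was 163 to 199 CPM in femur and 8860 to 15114 CPM in mandible libraries. Of 7 dental epithelium markers 5 were called higher, with sums of 8.52 to 12.0 and 5765 to 11285 CPM, and all 8 skeletal muscle markers were, with sums of 6.10 to 40.0 and 1334 to 4454 CPM. Of 7 megakaryocyte markers 6 were called lower, with sums of 559 to 894 and 73.4 to 106 CPM, as were 2 of 7 erythroid markers (192 to 1361 and 89.6 to 174 CPM) and 1 of 8 neutrophil markers (3302 to 28924 and 3121 to 7559 CPM). No marker of these lists was at 0 counts in all femur or all mandible libraries. Among the endothelial, B cell, T and NK cell and Schwann cell lists 1 gene, Ebf1 of the B cell list, was called, higher in the mandible. The 6 tested genes of that list had a median log2 fold change of 0.08, with 3 above 0 and 3 below. The B cell marker Vpreb1 and the Schwann cell marker Ncmap had no count in any mandible library. None of the 9 monocyte markers was called, and their sum was 7873 to 14549 CPM in femur libraries and 6716 to 12004 CPM in mandible libraries. In bulk libraries, fewer cells of a type and less RNA per cell cannot be told apart, and the part of these other cell types in the results below was not tested.

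Paralogs resemble each other in sequence, and a first question was whether a read can tell them apart. In the coding sequences of GENCODE M21 (GRCm38), the longest run that a pair had in common was 35 bases, between Chd3 and Chd4, and the most alike window of 50 bases in any pair, in Chd3 and Chd4, still held 2 mismatches. No run of 50 bases in the transcripts of any member occurred in another member. The 3 sets below show the most alike 50-base windows for the paralogs with the largest differences between sites, with the mismatches between the partners in capitals.
Smarcd1, coding bases 376 to 425: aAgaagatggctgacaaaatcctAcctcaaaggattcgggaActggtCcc
Smarcd3, coding bases 301 to 350: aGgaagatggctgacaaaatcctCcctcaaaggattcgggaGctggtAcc
Smarcd2, coding bases 1315 to 1364: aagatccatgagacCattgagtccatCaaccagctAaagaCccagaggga
Smarcd3, coding bases 1171 to 1220: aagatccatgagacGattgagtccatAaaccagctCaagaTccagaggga
Smarca1, coding bases 929 to 978: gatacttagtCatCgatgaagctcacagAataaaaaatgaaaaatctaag
Smarca5, coding bases 905 to 954: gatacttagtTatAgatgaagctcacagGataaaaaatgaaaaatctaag
Even at these places Smarcd3 differed from each of its paralogs by 4 bases of 50, and Smarca1 from Smarca5 by 3. Other genes were a nearer source of shared reads. Smarca5 had 28.2% of its 50-base runs in common with transcripts of 445 other genes, its pseudogene Smarca5-ps among them, so its counts are uncertain where the counting could split such reads.

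Among the Smarcd paralogs, Smarcd3 was higher in all 3 mandible libraries while Smarcd1 and Smarcd2 had overlapping levels at both sites. Smarcd3 (ENSMUSG00000028949, chr5:24590818-24624411 on the minus strand, GRCm38) encodes BAF60c. It had 20, 50 and 21 counts in femur S13, S15 and S18 and 501, 245 and 383 counts in mandible S16, S19 and S23. In TMM-scaled CPM, these were 1.10, 2.30 and 0.93 in the femur and 25.1, 11.6 and 21.9 in the mandible. The lowest mandible library stood well above the highest femur library, and the mean was 1.45 ± 0.749 CPM in femur libraries and 19.5 ± 7.03 CPM in mandible libraries (SD, n = 3), 13.5 times higher. The log2 fold change was 3.75 ± 0.56 (SE) and ran from 3.52 to 4.21 when each library was left out in turn.

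Smarcd1 (BAF60a, chr15:99702129-99713991, plus strand) had 19.1, 23.04 and 20.7 CPM in femur and 43.9, 24.7 and 22.0 CPM in mandible libraries. Only S16 stood apart, and the log2 fold change was 0.53 ± 0.34 (SE). Smarcd2 (BAF60b, chr11:106263179-106272972, minus strand) had 57.9, 73.2 and 86.6 CPM in femur libraries and 101, 90.9 and 65.2 CPM in mandible libraries, with a log2 fold change of 0.24 ± 0.27 (SE). For both genes the sites overlapped.

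The counts of Smarcd3 carry a limit of position. Chpf2, a chondroitin polymerizing factor gene on the opposite strand, has 2466 exon bases in common with Smarcd3, 48.2% of its exon length, and whether the strand of the reads was used in counting was not stated. Chpf2 had 32.9, 37.1 and 29.0 CPM in femur libraries and 24.7, 19.3 and 29.2 CPM in mandible libraries, so its level was not higher in the mandible libraries. The part of Chpf2 reads in the counts of Smarcd3 was not tested.

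Ratios of counts within a library do not depend on how libraries are scaled. The log2 ratio of Smarcd3 to Smarcd1 was -4.08, -3.31 and -4.45 in femur S13, S15 and S18 and -0.81, -1.09 and -0.01 in mandible S16, S19 and S23. The sites were 2.22 apart at their nearest libraries, and the means differed by 3.31 ± 0.47 (SE). The log2 ratio of Smarcd3 to Smarcd2 differed by 3.54 ± 0.60 (SE), with 2.01 between the nearest libraries. In S23 Smarcd3 and Smarcd1 had nearly equal counts, whereas in the femur Smarcd3 had at most 0.101 counts for each count of Smarcd1. The ratio of Smarcd2 to Smarcd1 overlapped between sites and differed by -0.23 ± 0.24 (SE).

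**Figure D1:**
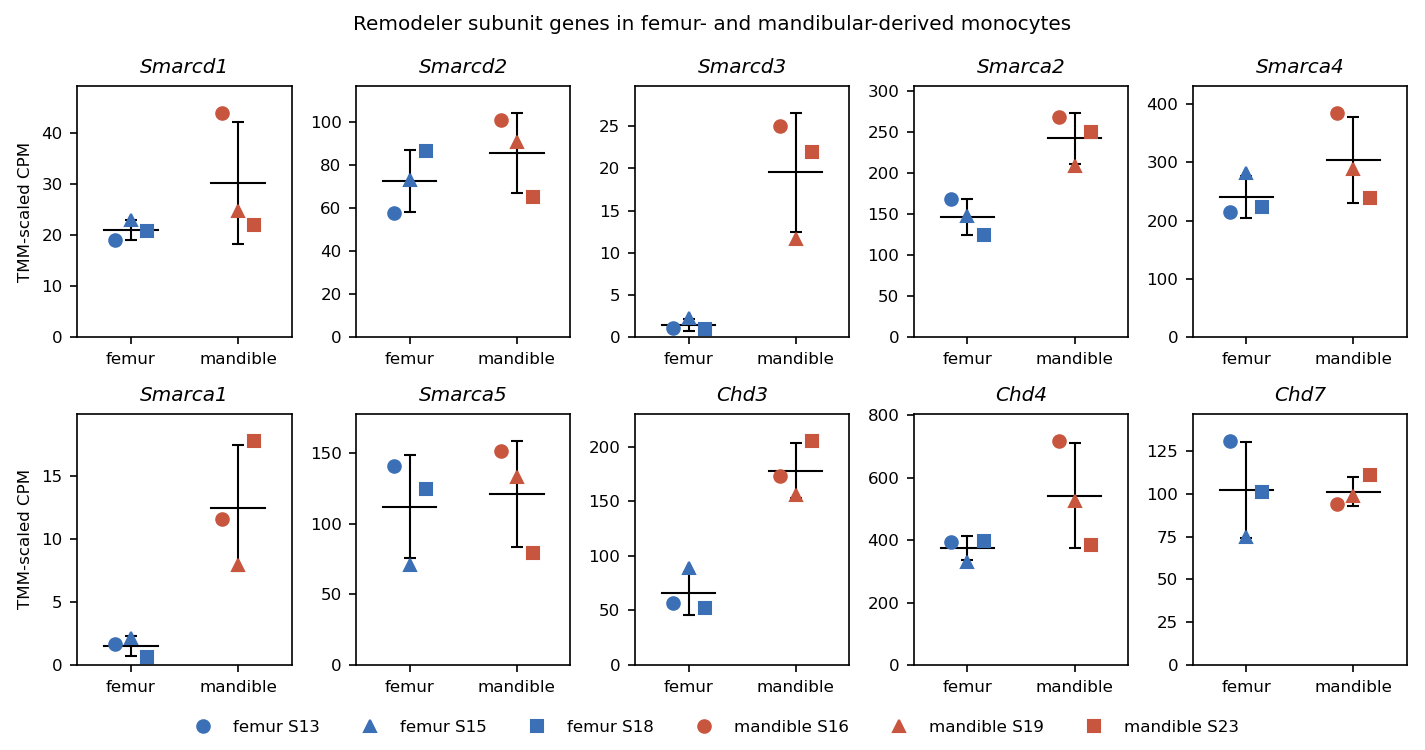
TMM-scaled CPM (vertical axes, from 0, with a scale of its own in each panel) of the 10 genes in the 6 libraries. Points are libraries, horizontal lines are means and bars are SD of 3 libraries. The 3 mandible libraries lie above the 3 femur libraries for Smarcd3, Smarca2, Smarca1 and Chd3, and the sites overlap for the other 6 genes.

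Per kilobase of exon, which puts genes of different length on one scale, Smarcd3 made up 1.02, 1.69 and 0.61% of the family's counts in the femur and 11.1, 6.73 and 15.3% in the mandible. Smarcd2 held the largest share in each library, 76.5 to 81.9% in femur and 64.1 to 75.1% in mandible libraries, and Smarcd1 held 17.5 to 22.5% and 18.2 to 24.8%. The share of Smarcd2 was thus lower in all 3 mandible libraries, whereas its CPM was not. The summed level of the 3 paralogs was 25.7 ± 4.25 CPM per kilobase in the femur and 35.2 ± 8.13 in the mandible (SD, n = 3), and overlapped between sites. With the bases shared with Chpf2 removed from the length of Smarcd3, its share was 1.95, 3.22 and 1.18% in the femur and 19.5, 12.2 and 25.9% in the mandible. This upper version assumes that none of the counts of Smarcd3 came from the shared bases.

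Of the SWI/SNF ATPases, Smarca2 was higher in every mandible library, by less than 2-fold in the mean, and Smarca4 overlapped between sites. Smarca2 (BRM, chr19:26605050-26778322, plus strand) had 169, 147 and 124 CPM in femur libraries and 269, 209 and 250 CPM in mandible libraries, with a log2 fold change of 0.73 ± 0.26 (SE). Smarca4 (BRG1, chr9:21616169-21704230, plus strand) had 215, 281 and 224 CPM in femur libraries and 385, 288 and 239 CPM in mandible libraries, with a log2 fold change of 0.34 ± 0.28 (SE). The log2 ratio of Smarca2 to Smarca4 was -0.35, -0.93 and -0.85 in femur and -0.52, -0.47 and 0.07 in mandible libraries. These values overlapped, and the means differed by 0.40 ± 0.26 (SE). S23 was the only library with more counts of Smarca2 than of Smarca4. Smarca2 has 14269 exon bases in M21 against 6475 for Smarca4, and per kilobase it made up 19.2 to 26.2% of the pair in femur and 24.1 to 32.2% in mandible libraries. A loess correction for gene length moved the log2 fold change of Smarca2 to 0.0094 and that of Smarca4 to 0.017. The difference of the ratio moved to 0.065. Together the 2 ATPases had 47.4 ± 5.59 CPM per kilobase in the femur and 64.0 ± 12.6 in the mandible (SD, n = 3), with the mandible libraries above those of the femur. Division by a fixed gene length is not the loess correction, so this sum still holds each library's trend with length.

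In the ISWI pair, the minor paralog Smarca1 was higher in all 3 mandible libraries, and the levels of the major one, Smarca5, overlapped between sites. Smarca1 (SNF2L, chrX:47809368-47892974, minus strand) had 30, 47 and 14 counts in the femur and 232, 167 and 312 counts in the mandible, or 1.66, 2.17 and 0.62 CPM and 11.6, 7.93 and 17.8 CPM. The sites did not overlap, the mandible mean was 8.42 times higher, and the log2 fold change was 3.07 ± 0.65 (SE). This value ranged from 2.66 to 3.41 when single libraries were left out. Its highest value was in S23, the library with Xist, and Smarca1 is X-linked. The part of sex in its level was not tested.

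Smarca5 (SNF2H, chr8:80698507-80739497, minus strand) had 141, 71.1 and 124 CPM in femur libraries and 151, 133 and 79.0 CPM in mandible libraries, with a log2 fold change of 0.11 ± 0.33 (SE), which was -0.38 after length correction. The log2 ratio of Smarca1 to Smarca5 was -6.38, -5.02 and -7.60 in the femur and -3.70, -4.07 and -2.14 in the mandible, 0.95 apart at the nearest libraries and different by 3.03 ± 0.95 (SE) in the mean. Smarca5 still supplied most of the pair. Per kilobase, Smarca1 made up 1.48, 3.73 and 0.63% in the femur and 8.89, 7.03 and 22.3% in the mandible.

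**Figure D2:**
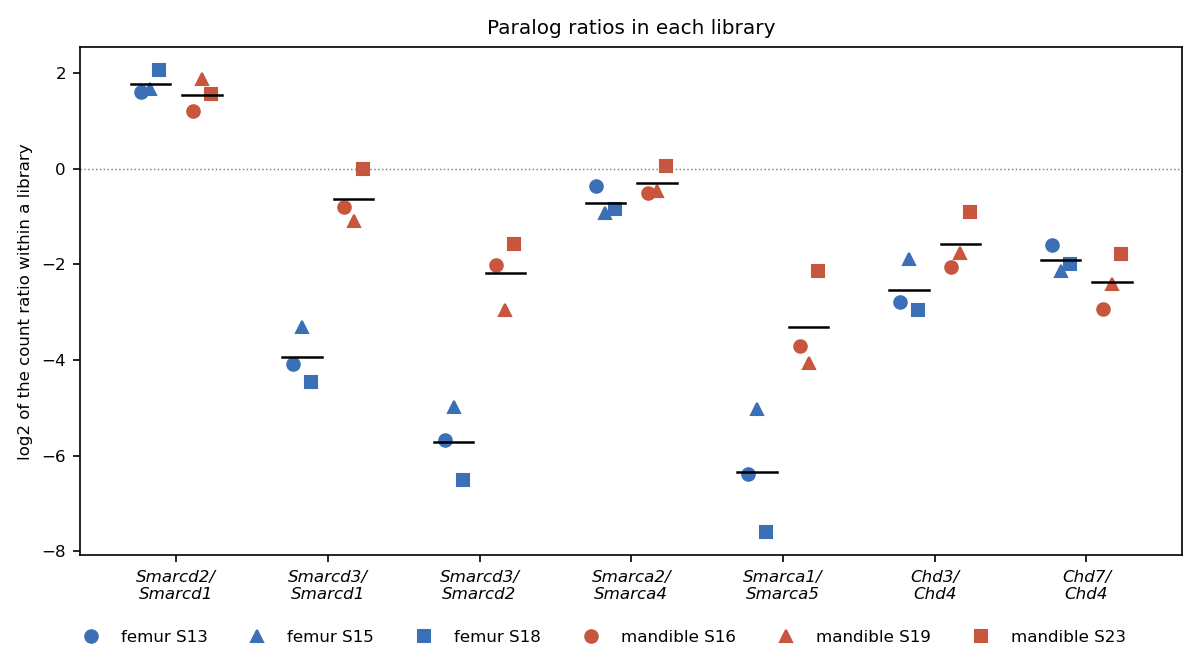
Log2 ratio of the counts of 2 paralogs within each library (vertical axis), for 7 pairs. Points are libraries and horizontal lines are the means of 3. The sites are separate for Smarcd3 against either paralog and for Smarca1 against Smarca5, by 0.95 to 2.22, and overlap for the other 4 pairs.

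Chd3 was higher in the mandible, and Chd4, the alternative ATPase of NuRD, overlapped between sites. Chd3 (Mi-2 alpha, chr11:69343273-69369406, minus strand) had 56.9, 88.5 and 51.8 CPM in femur libraries and 173, 156 and 206 CPM in mandible libraries. The mean was 65.7 ± 19.9 CPM in femur libraries and 178 ± 25.2 CPM in mandible libraries (SD, n = 3), 2.71 times higher, with a log2 fold change of 1.44 ± 0.29 (SE). Over the 6 fits with a library left out its log2 fold change was 1.27 to 1.67, and after length correction it was 0.98.

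Chd4 (Mi-2 beta, chr6:125095981-125130591, plus strand) had 395, 329 and 399 CPM in femur libraries and 719, 526 and 383 CPM in mandible libraries, with a log2 fold change of 0.54 ± 0.31 (SE). Length correction moved it to 0.068. The log2 ratio of Chd3 to Chd4 was -2.80, -1.89 and -2.94 in the femur and -2.06, -1.75 and -0.90 in the mandible. Femur S15 lay above mandible S16, so the sites overlapped, and the means differed by 0.98 ± 0.48 (SE). Chd7 (chr4:8690406-8867659, plus strand) had 131, 74.9 and 101 CPM in femur libraries and 94.2, 98.8 and 111 CPM in mandible libraries. Its log2 fold change was -0.01 ± 0.27 (SE), the only one below 0, and was -0.79 after length correction, and the gene has 13786 exon bases in M21. Per kilobase, Chd3 made up 9.71 to 18.4% of the 3 CHD genes in femur and 17.5 to 30.4% in mandible libraries, and Chd7 9.54 to 14.5% and 5.84 to 10.03%. The 3 genes together had 61.9 ± 4.46 CPM per kilobase in the femur and 96.1 ± 18.9 in the mandible (SD, n = 3), without overlap. This sum, too, was without the loess correction.

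**Figure D3:**
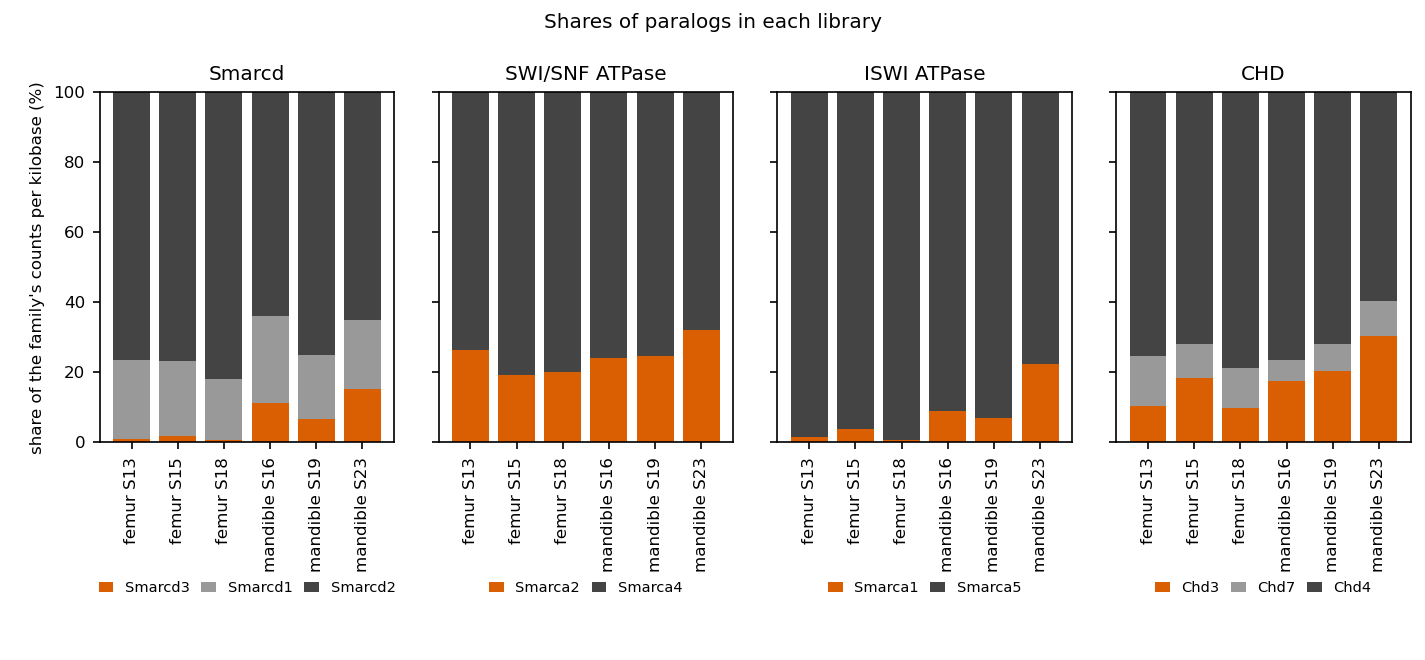
Share of each paralog in its family's counts per kilobase of exon (vertical axis, %), one bar per library. Smarcd3 holds at most 1.69% in femur and 6.73% or more in mandible libraries, and Smarca1 at most 3.73% and 7.03% or more, while Smarcd2, Smarca4, Smarca5 and Chd4 keep the largest share in each library.

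In CPM per kilobase the order of the genes was led at both sites by Chd4, with 46.7 ± 4.92 in the femur and 67.7 ± 21 in the mandible, and by Smarca4, with 37.1 ± 5.52 and 47.0 ± 11.4 (SD, n = 3). Smarcd2 followed with 20.2 ± 4.01 and 23.9 ± 5.16. In the femur Smarca5 (14.4), Smarca2 (10.3), Chd3 (7.78), Chd7 (7.42) and Smarcd1 (5.21) came next in CPM per kilobase, and Smarcd3 (0.282) and Smarca1 (0.242) were last. In the mandible the order in CPM per kilobase was Chd3 (21.1), Smarca2 (17.004), Smarca5 (15.6), Smarcd1 (7.51), Chd7 (7.35), Smarcd3 (3.82) and Smarca1 (2.04). Neighbours in the order overlapped in their library values, except Smarca4 over Smarcd2 at both sites, Smarcd1 over Smarcd3 in the femur and Chd7 over Smarcd3 in the mandible. This order uses the whole exon length of Smarcd3. Without the bases shared with Chpf2 its level was 0.545 ± 0.282 CPM per kilobase in the femur and 7.36 ± 2.65 in the mandible (SD, n = 3). On that length its mandible values of 9.45, 4.38 and 8.25 CPM per kilobase overlapped those of Chd7 (6.83, 7.16 and 8.04) and Smarcd1 (10.9, 6.14 and 5.47), so its place among these 3 genes in the mandible depends on the length used.

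Over the set, 3 of 10 genes were called higher (Smarcd3, Smarca1 and Chd3), beside 3.88% of all tested genes, and none was called lower, beside 1.30%. With S13, S18, S19 or S23 left out, Smarcd3 alone passed the same thresholds, Smarca1 did not pass by limma-voom, and Chd3 did not after length correction. For 4 genes, these 3 and Smarca2, all mandible libraries were above all femur libraries, beside 12.7% of all tested genes, and for none were all below, beside 11.5%. The median log2 fold change was 0.53, beside -0.04 over all tested genes, and 0.10 and -0.18 after length correction. Since the genes were picked with this contrast known, nothing is read from these calls or shares.

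The libraries of 1 site did not carry these genes in equal amounts. Among the femur libraries, S15 had the highest CPM of Smarcd3, Smarca1 and Chd3, and it also had the highest summed level of the skeletal muscle markers, 40.0 CPM against 14.9 in S13 and 6.10 in S18. Among the mandible libraries, S19 had the lowest CPM of these 3 genes and the lowest muscle sum, 1334 CPM against 2810 in S16 and 4454 in S23. The mesenchymal and osteoblast sum was also highest in S15 among the femur libraries, at 199 CPM against 197 in S13 and 163 in S18. Among the mandible libraries it was lowest in S16, at 8860 CPM against 11632 in S19 and 15114 in S23. Every other marker list had its lowest femur sum in S15, among them neutrophil (3302 CPM), megakaryocyte (559), erythroid (192) and dental epithelium (8.52). In the mandible, the neutrophil sum was highest in S19, at 7559 CPM. The megakaryocyte and erythroid sums were lowest in S19, at 73.4 and 89.6 CPM. The dental epithelium sum was lowest in S16, at 5765 CPM, and highest in S23, at 11285 CPM. Smarcd3 was highest in S16, at 25.1 CPM against 21.9 in S23, whereas Smarca1, Chd3 and the muscle sum were highest in S23. The part of these cell types in the levels of the 3 genes was not tested.

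The genes most like a member were sought by Pearson's r of log2 CPM over the 6 libraries, among 16109 genes. For Smarcd3 these were Actn2, which encodes an actin crosslinker of the muscle Z-disc (r = 0.999), Eef1a2, a translation elongation factor of muscle and neurons (0.998), and Wnt9a, a WNT ligand (0.998). Actn2 had no count in femur S13 and S18, 0.875 CPM in S15 and 17.1 to 44.8 CPM in the mandible, with its lowest mandible value in S19 as for Smarcd3. For Smarca1 they were Rapgef1 (0.998), Plekha5 (0.997) and Tcf7l2 (0.997), and for Chd7 Sac3d1 (0.987), Hmgn1 (0.978) and Trp53inp1 (0.975). The size of a change does not enter r. Rapgef1 had 103 to 126 CPM in femur and 153 to 187 CPM in mandible libraries, a smaller change than that of Smarca1. Plekha5 had 3.09 to 10.2 and 31.3 to 62.2 CPM, and Tcf7l2 2.16 to 5.67 and 14.5 to 30.2 CPM. With 6 libraries in 2 groups, which share a library's composition and depth, such values of r describe these libraries only.

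Of 84 further subunit genes of the SWI/SNF, ISWI, CHD and NuRD, and INO80, SRCAP and TIP60 complexes, 83 were tested, 50 had a log2 fold change above 0 and 33 below, and their median was 0.10. Over all tested genes, 47.8% were above 0. A single one was called higher, Bcl11b, beside 3.88% of all tested genes. None was called lower, and 3 had an unadjusted p under 0.05 by edgeR, namely Bcl11b, Bcl11a and Epc2, beside 2975 of all 18114 tested genes. For 10 genes all mandible libraries were above the femur, beside 12.7% of tested genes, and for 3 (Mta2, Actr5 and Znhit1) all were below, beside 11.5%. Actl6b, a neuronal BAF subunit, was the gene that did not pass the filter.

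Bcl11b, a zinc finger transcription factor of T cells that also joins BAF complexes, had 15.6, 6.27 and 5.96 CPM in femur and 22.1, 36.4 and 78.3 CPM in mandible libraries. Its log2 fold change was 2.30 ± 0.53 (SE), and the adjusted p was 0.028 (edgeR's quasi-likelihood test, adjusted by Benjamini-Hochberg). The gene was not called after length correction, nor without S15, S18, S19 or S23, with log2 fold changes of 1.60 to 2.90 when each library was left out. The T and NK cell markers summed to 74.2, 33.4 and 48.0 CPM in femur S13, S15 and S18 and to 41.9, 53.7 and 89.7 CPM in mandible S16, S19 and S23. Like Bcl11b, this sum was highest in S13 among the femur libraries and rose from S16 to S19 and S23. The dental epithelium and mesenchymal sums also rose in that mandible order. For 1 of the 7 T and NK cell markers all mandible libraries were above all femur libraries, and none was called. The part of these cell types in the level of Bcl11b was not tested.

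By family, 20 of the 25 tested other SWI/SNF genes had a log2 fold change above 0, with a median of 0.21. The 2 with the highest mean CPM over the 6 libraries, a level that is not corrected for length, were Actb, the cytoskeletal actin that is also a BAF subunit, with a log2 fold change of 0.10 ± 0.47 (SE), and Arid1a, the DNA-binding BAF subunit, with 0.47 ± 0.30 (SE). Of 9 ISWI partners 7 were above 0, with a median of 0.20, and the 2 named by the same rule were Baz1b (0.20 ± 0.28) and Baz1a (0.24 ± 0.32), which pair with Smarca5. Of 18 CHD and NuRD genes 11 were above 0, with a median of 0.15. The histone chaperone Rbbp4 had a log2 fold change of -0.66 ± 0.35 (SE) and the remodeler Chd2 one of 0.55 ± 0.27 (SE), neither called. Of 31 INO80, SRCAP and TIP60 genes 12 were above 0 and 19 below, with a median of -0.11, and the TIP60 subunits Ep400 (0.19 ± 0.27) and Trrap (0.45 ± 0.25) had the highest mean CPM over the 6 libraries, again without length. In these 4 groups the medians lay between -0.11 and 0.21 before and between -0.39 and -0.16 after length correction.

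**Figure D4:**
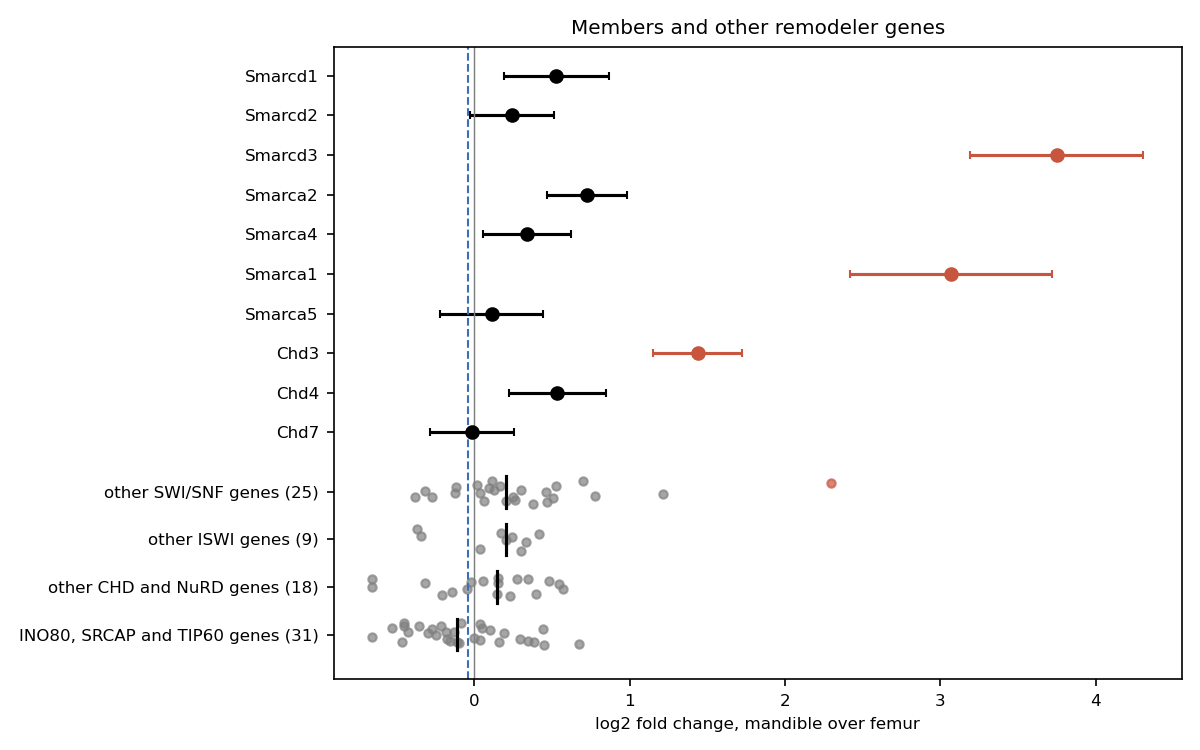
Log2 fold change of mandible over femur (horizontal axis) with SE bars for the 10 genes, and single points for the 83 other tested remodeler genes by family, with the family medians as black lines and the median of all tested genes, -0.04, as a dashed line. Red marks genes called by edgeR. Smarcd3, Smarca1 and Chd3 stand to the right of most other remodeler genes, and Bcl11b is the single called gene among those.

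RefSeq promoter windows were matched for 8 of the 10 genes, all but Chd3 and Chd7. The windows of the 2 lowly expressed paralogs with the largest fold changes are shown in GRCm38.p6 up to the first exon base of M21, in the direction of transcription. Capitals mark the GC box (GGGCGG or its reverse complement CCGCCC) and the E-box CAGCTG, which is its own reverse complement.
Smarcd3, chr5:24602013-24602252, minus strand: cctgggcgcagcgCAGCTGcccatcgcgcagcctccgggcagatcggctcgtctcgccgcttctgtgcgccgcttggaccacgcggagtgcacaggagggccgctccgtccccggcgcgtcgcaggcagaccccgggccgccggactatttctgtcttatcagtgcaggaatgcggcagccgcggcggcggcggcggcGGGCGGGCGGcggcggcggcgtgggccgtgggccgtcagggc
Smarca1, chrX:47892614-47892863, minus strand: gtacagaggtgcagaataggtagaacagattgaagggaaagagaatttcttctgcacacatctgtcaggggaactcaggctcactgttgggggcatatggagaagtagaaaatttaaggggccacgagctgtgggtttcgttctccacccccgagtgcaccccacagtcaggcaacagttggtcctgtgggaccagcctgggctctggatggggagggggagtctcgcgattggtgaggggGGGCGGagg
Both windows lie inside the M21 gene, in an intron of transcripts that start farther upstream. The Smarcd3 window held 2 overlapping GC boxes and 1 E-box, and the Smarca1 window 1 GC box and no E-box. Of 32851 RefSeq promoters, 32.7% held a GC box and 13% a CAGCTG in the 250 bases before the start. Each of the 8 matched genes held a GC box there, so it was not particular to Smarcd3 and Smarca1. The 250 bases before the start of Smarcd3 had 38 CpG dinucleotides, at the 98.1 percentile of all promoters, and those of Smarca1 had 6, the same as the median. These 2 windows thus differed in CpG content although both genes were higher in the mandible libraries. The starts farther upstream, and which start these cells used, were not examined. A match of letters is a description and not a binding site.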

How the data were processed

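Paired-end reads were trimmed (Trimmomatic), aligned (HISAT2 2.1.0) and counted per gene (featureCounts) by the authors, who deposited raw counts per gene and library, whole numbers without normalization. The length of each gene's exons, in bases, was deposited beside the counts by the authors. GRCm38 is the build named, but 2979 of 52081 genes shared with GENCODE M21 had a deposited interval inside the M21 gene. Positions are therefore those of M21, matched by Ensembl identifier. The members' exon lengths equalled those of M21. The version of featureCounts, the use of strand and the treatment of reads with several positions are not given in the sources used here. No column without a sample was present. The count column of S23 was named Kmansky and those of the other libraries Mansky, each with a number, and the reason is not given. S23 also had the fewest counts, 15718782.

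The test was the quasi-likelihood test of edgeR 4.0.16 in R 4.3.3, after filterByExpr (min.count 10, min.total.count 15) and TMM scaling, with a prior count of 0.125, without covariates, in all 6 libraries. A call needed an adjusted p (Benjamini-Hochberg) under 0.05 and at least a 2-fold change. Depth was 15718782 to 25371474 counts per library. The SE of a log2 fold change was its absolute size divided by the square root of edgeR's F statistic. Paralog ratios added 0.5 to each count, and the SE of a ratio difference came from the variances of the 3 libraries at each site. The alternatives were DESeq2 1.42.0, limma-voom (limma 3.58.1), other scalings and filters, a loess correction (span 0.4) of log2 CPM on length, and each library left out, and the fits were tested on simulated data. The removal of Chpf2 bases from the length of Smarcd3 and the count of members called were added after the data were seen. The members and lists were chosen with earlier results of these data known. Named were all members, every called gene and the 2 most abundant genes of each other remodeler group, and the 3 genes most like Smarcd3, Smarca1 and Chd7. Of the genes overlapping a member, Chpf2 was described because it had the most exon bases in common with one. Smaller overlaps were present for other members, such as Gm17349 with 7.13% of the exon bases of Smarcd1. Other genes named (Bcl11a, Epc2, Mta2, Actr5, Znhit1, Xist and Ddx3y) were chosen after their values were seen. With 3 libraries a site, 0.1 is the smallest p of an exact permutation test, which was not used.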

Additional observations from a re-analysis of the deposited data

How the results depend on the processing

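Of 3 members called, 1 to 3 were called when each library was left out, where Smarca1 and Chd3 were not called without S13, S18, S19 or S23. The call of Bcl11b, the only one among the other remodelers, gave 0 calls after length correction and 0 to 1 with a library left out. Over all genes, 938 were called, 1548 by DESeq2, 1590 with every gene that had a count, and 434 (without S19) to 1565 (without S15) with a library left out. Length correction moved the Smarca2 to Smarca4 ratio difference from 0.40 to 0.065 and moved 5 of the 10 fold changes of members by more than the spread between libraries, and no other alternative moved one. The share of Smarcd1, higher by 0.36 percentage points in the mandible per kilobase, differed by -0.52 on plain counts and by -1.37 without the Chpf2 bases. Its values overlapped between sites in each case. The causes were not tested. With 3 libraries per site and 14 to 50 femur counts of Smarcd3 and Smarca1, their log2 fold changes are imprecise, with an SE of 0.56 and 0.65. No paired analysis was possible, because the animal behind a library is not named and the groups share no replicate number. S23 had 25189 counts of Xist and 0 of Ddx3y, whereas the femur libraries had 840 to 1529 counts of Ddx3y and at most 12 of Xist. S23 and the femur libraries therefore came from different mice. Whether S16 or S19 came from the same mice as a femur library is unknown.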
